A study of Mus musculus with 3 samples.

Results

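The genes described here are 9 inducible negative regulators of signalling in mouse, namely 6 dual specificity phosphatases (Dusp1, Dusp2, Dusp4, Dusp5, Dusp6 and Dusp10) and the 3 RNA-binding proteins Zfp36, Zfp36l1 and Zfp36l2. They were taken by symbol from a count table of 48709 genes, and all 9 were found once. The table holds 3 libraries in 1 group, wild type (WT), sorted from dissociated lung on a flow cytometer and labelled as lung smooth muscle cells. Their source was transgenic mice with creERT2 under the name of smooth muscle actin, a Cre recombinase that works once tamoxifen is given, and with the red fluorescent protein tdTomato. All received tamoxifen at 75 mg/kg for 10 days from an age of 8 weeks, and lungs were taken 2 months later; no untreated or second group was analysed here. Nothing in the labels says that the libraries came from separate mice, so the spread between them may be technical. In the absence of a second group, levels within libraries, their order and their spread are described.

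The dual specificity phosphatases of this set remove phosphate from both the threonine and the tyrosine that activate a MAP kinase, the last enzyme of a kinase cascade that runs from growth factor, antigen and stress receptors. Many of them are transcribed in response to the same signal that they end, and so form negative feedback. ZFP36 proteins bind AU-rich elements in the 3′ untranslated regions of mRNAs of cytokines and early response genes through a pair of zinc fingers and bring in the deadenylase that starts decay. Kinases downstream of p38 phosphorylate ZFP36 and restrain it, which links both families. In lymphocytes Zfp36l1 and Zfp36l2 act in development and quiescence, and in dissociated tissues genes of both families belong to the transcripts that enzymatic digestion can induce.

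Library totals were 18896263, 18355813 and 16877297 counts for WT libraries 1, 2 and 3, and levels are given as CPM, counts per 1000000 counts of the library. Nuclear protein-coding genes held 56.9%, 58.8% and 63.0% of the counts of libraries 1, 2 and 3. A count of 0 allows a level of up to 3 counts, which is 0.159, 0.163 and 0.178 CPM in these libraries, for counting error only. Markers were checked against the label: the 8 smooth muscle markers summed to 87.2, 113 and 85.9 CPM, with calponin, Cnn1, at 0 counts in library 1, whereas the 12 lymphocyte markers summed to 1418, 1568 and 1548 CPM. Defining markers of fibroblasts, endothelium, epithelium and myeloid cells were also present. The values below are those of the whole sorted population. In such bulk libraries, fewer cells of a type and less RNA per cell cannot be told apart.

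All 9 genes were expressed, and Zfp36l2 stood highest. Each of the 9 had a mean of at least 10 CPM, a level that 35.8% of 22005 nuclear protein-coding genes reached, and 6 of 9 had at least 100 CPM, against 5.89% of those genes. The median of the 9 genes was 7.30 ± 0.28 log2(CPM + 1) (SD, n = 3), and that of all nuclear protein-coding genes was 2.00 ± 0.08. Per kilobase of exon, the scale on which genes can be set against each other, the median of the members was 52.7 CPM per kilobase, against 7.02 over the 7883 nuclear protein-coding genes with a mean of at least 10 CPM. The plot of levels by library shows every value.

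**Figure D1:**
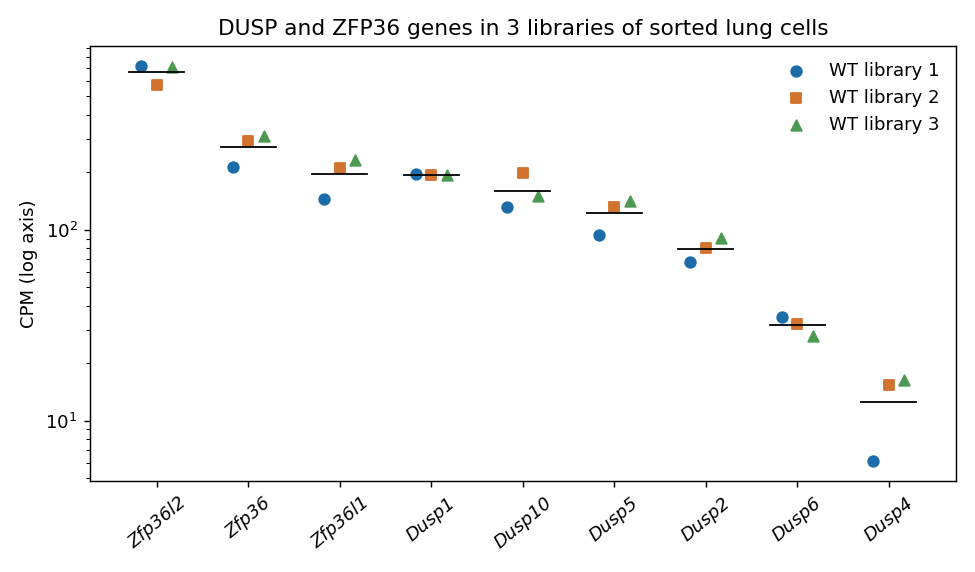
CPM of each gene in each library on a log axis, with points for the 3 WT libraries and a black line at their mean. Zfp36l2 lies highest and Dusp4 lowest in each library, the 3 points of Dusp1 nearly coincide, and library 1 is the lowest point of Zfp36, Zfp36l1, Dusp10, Dusp5, Dusp2 and Dusp4.

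Among the RNA-binding proteins, Zfp36l2 (ENSMUSG00000045817, chromosome 17, 84183931 to 84187947, minus strand) had 723, 574 and 713 CPM in libraries 1, 2 and 3. Its mean of 670.02 ± 83.2 CPM ranked 70 among the nuclear protein-coding genes, and library 2 was the low one. Zfp36, the founding member known as tristetraprolin (ENSMUSG00000044786, chromosome 7, 28376784 to 28380253, minus strand), had 212, 290 and 310 CPM, with library 1 below the others. Zfp36l1 (ENSMUSG00000021127, chromosome 12, 80107760 to 80113013, minus strand) followed the same order, at 144, 211 and 232 CPM. The remaining mouse paralog, Zfp36l3 on the X chromosome, which is known from placenta, had 0, 0 and 1 counts.

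Over the union of exons, Zfp36l2 therefore made up most of the ZFP36 transcripts in each library, though only narrowly in library 2. Per kilobase it took 65.2%, 51.3% and 54.8% of the sum of the 3 genes, a mean of 57.1% ± 7.21, with Zfp36 at 23.4% ± 3.54 and Zfp36l1 at 19.5% ± 3.69. Within libraries the log2 ratio per kilobase of Zfp36l2 to Zfp36 was 1.29 ± 0.40, or 2.45-fold, and that of Zfp36 to Zfp36l1 was 0.26 ± 0.07, and both were above 0 in 3 of 3 libraries. When the longest transcript replaced the union of exons, the first ratio was 0.98 ± 0.40 and the second 0.58 ± 0.07, with the same signs. Shares were not computed on that length, so a majority for Zfp36l2 in library 2 holds for the union of exons only. Of the 50-base words in Zfp36l1 transcripts, 54.4% also occur in an antisense gene or in the copy Zfp36l1-ps, whose counts were 7.86%, 9.53% and 7.66% of its own. Reads of the copy and the gene cannot be told apart over that sequence, and the level of Zfp36l1 is uncertain.

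The mRNAs of ZFP36 genes can themselves carry the sequence that their proteins bind, so the heptamer TATTTAT was counted on the sense strand after the stop codon of the longest coding transcript of each gene in GENCODE M21. It was found in 5 of the 9 members, the 3 ZFP36 genes, Dusp1 and Dusp2, and in 33.2% of the 7803 other nuclear protein-coding genes with a mean of at least 10 CPM. The members held 13 matches in 10224 bases, or 1.27 per kilobase, against 0.283 per kilobase in those other genes, and the median length searched was 1111 bases in members and 1327 in the others. Dusp1, Zfp36, Zfp36l1 and Zfp36l2 had 3 matches each and Dusp2 had 1. Dusp4, Dusp5, Dusp6 and Dusp10 had none, which says only that these letters are not in the transcript searched. The following stretches of 29 bases from GRCm38, 1 for each gene with a match, show the heptamer in capitals, 5′ to 3′ on the strand of the gene. They are the first match after the stop codon of each gene.
Dusp1 chr17:26506159-26506187 (minus): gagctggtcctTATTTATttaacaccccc
Dusp2 chr2:127338304-127338332 (plus): acagcactttaTATTTATatagaacattg
Zfp36 chr7:28376966-28376994 (minus): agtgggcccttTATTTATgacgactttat
Zfp36l1 chr12:80108422-80108450 (minus): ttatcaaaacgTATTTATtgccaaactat
Zfp36l2 chr17:84184914-84184942 (minus): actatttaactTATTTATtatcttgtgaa

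In Zfp36 a further match lies close by, in the stretch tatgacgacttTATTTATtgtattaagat at chr7:28376951-28376979. The heptamer is a description of sequence, and binding was not measured.

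Among the phosphatases, Dusp1, Dusp10, Dusp5 and Dusp2 stood above Dusp6 and Dusp4. Dusp1, also called MKP-1, acts in the nucleus on p38, JNK and ERK (ENSMUSG00000024190, chromosome 17, 26505590 to 26508519, minus strand), and had 196, 193 and 193 CPM. These values lay within 1.02-fold of each other, the smallest spread among the 9 genes. Dusp10, also called MKP-5, which prefers p38 and JNK (ENSMUSG00000039384, chromosome 1, 184013302 to 184075636, plus strand), had 131, 199 and 150 CPM, with library 2 above the others.

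Dusp5, a nuclear phosphatase selective for ERK (ENSMUSG00000034765, chromosome 19, 53529109 to 53542431, plus strand), had 94.1, 131 and 142 CPM. Dusp2, known as PAC-1 and described first in activated lymphocytes (ENSMUSG00000027368, chromosome 2, 127336159 to 127338376, plus strand), had 67.7, 80.0 and 90.4 CPM. Both were lowest in library 1 and highest in library 3 on this scale. Of nuclear protein-coding genes with a mean of at least 10 CPM, 52.3% were also highest in library 3.

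Dusp6, the cytoplasmic phosphatase of ERK also called MKP-3 (ENSMUSG00000019960, chromosome 10, 99263231 to 99267488, plus strand), stood lower at 35.0, 32.0 and 27.7 CPM. Dusp4, a nuclear phosphatase also called MKP-2 (ENSMUSG00000031530, chromosome 8, 34807297 to 34819894, plus strand), was the lowest member, at 6.14, 15.3 and 16.3 CPM from 116, 281 and 275 counts. Its highest library was 2.65-fold above its lowest, the widest range of the 9 genes.

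Per kilobase of exon the members formed an upper group of 7 genes and a lower group of 2. Zfp36l2 came first at 189.8 ± 23.6 CPM per kilobase, then Zfp36 at 78.0 ± 14.9, Zfp36l1 at 65.4 ± 15.3, Dusp1 at 58.6 ± 0.570, Dusp10 at 52.7 ± 11.5, Dusp5 at 49.5 ± 10.1 and Dusp2 at 39.6 ± 5.68. Dusp6 at 10.1 ± 1.18 and Dusp4 at 4.59 ± 2.04 CPM per kilobase followed after a gap. For Dusp1 the union of exons in GENCODE M21, 3311 bases, is longer than the span of the gene in the count table. Its value per kilobase, and its place in this order, may therefore be too low. Of the 8 ratios between neighbours in this order, 5 were larger than their SD and had the same sign in 3 of 3 libraries. The gap from Dusp2 to Dusp6 had a mean log2 ratio of 1.96 ± 0.38, or 3.89-fold, and that from Dusp6 to Dusp4 was 1.23 ± 0.91. In library 1 the gap from Dusp6 to Dusp4 was the larger of these, at 2.27 against 1.59, and with no length the means were 1.44 for Dusp6 to Dusp4 and 1.32 for Dusp2 to Dusp6.

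Over the union of exons, Zfp36l1, Dusp1, Dusp10 and Dusp5 could not be ordered beyond their spread. The log2 ratios per kilobase were 0.13 ± 0.38 for Zfp36l1 to Dusp1, 0.18 ± 0.32 for Dusp1 to Dusp10 and 0.09 ± 0.27 for Dusp10 to Dusp5, each above 0 in 2 of 3 libraries. With the longest transcript as length, Zfp36l1 to Dusp1 was -0.39 ± 0.38 and Dusp1 to Dusp10 0.57 ± 0.32, and with no length Dusp10 to Dusp5 was 0.39 ± 0.27, each beyond 1 SD. The order of Dusp5 and Dusp2 depended on the length used, with a ratio of 0.31 ± 0.12 over the union of exons and 0.00 ± 0.12 over the longest transcript. The smallest p that an exact two-sided sign-flip test allows with 3 libraries is 0.25, and these ratios carry no test.

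**Figure D2:**
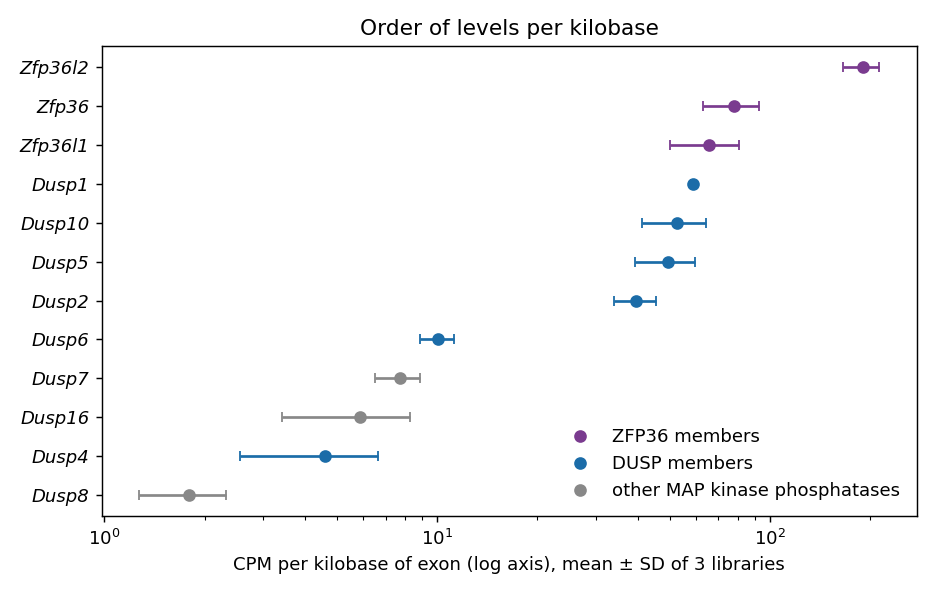
Mean CPM per kilobase of exon on a log axis, with bars of 1 SD over 3 libraries, for ZFP36 members (purple), DUSP members (blue) and the other MAP kinase phosphatases (grey, without Dusp9, which had 0 counts). Zfp36l2 lies apart at the top, and Dusp6 lies just above Dusp7 and Dusp16, with Dusp4 between Dusp16 and Dusp8.

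MAP kinase phosphatases outside the set had lower means than Dusp1, Dusp10, Dusp5 and Dusp2, but overlapped the lower members. Dusp16 had a mean of 45.6 CPM, above Dusp6 at 31.6 CPM. Per kilobase Dusp7 at 7.71 and Dusp16 at 5.84 lay above Dusp4 at 4.59. The 6 DUSP members together took 93.2% ± 1.66 of the CPM per kilobase summed over 10 typical MAP kinase phosphatases, a family of which 4 members, Dusp7, Dusp8, Dusp9 and Dusp16, are not in the set. Dusp1 took 25.6% ± 2.82, Dusp10 22.7% ± 3.25, Dusp5 21.3% ± 2.77 and Dusp2 17.2% ± 1.51 of that sum. Dusp9 was at 0 counts in each library, so that its level was at most 0.178 CPM in the shallowest one.

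Phosphatases of similar substrate preference could be compared within libraries. Dusp16, which like Dusp10 prefers p38 and JNK, had 67.0, 31.7 and 38.0 CPM, so library 1 was its high library. By library totals, library 1 was the low library of Dusp10. Per kilobase Dusp10 exceeded Dusp16 by a log2 ratio of 3.20 ± 0.84, above 0 in 3 of 3 libraries. Between the cytoplasmic phosphatases of ERK, Dusp6 exceeded Dusp7 by 0.39 ± 0.28. Dusp1 exceeded its nuclear relative Dusp4 by 3.77 ± 0.78 and Dusp2 by 0.57 ± 0.22, both in 3 of 3 libraries.

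The atypical dual specificity phosphatases, smaller enzymes of which many do not act on MAP kinases, were lower again. Of 17 symbols 16 were found, and 2 of these had a mean of at least 10 CPM, Dusp11, an RNA phosphatase, at 112 ± 8.32 CPM and Dusp3 at 30.0 ± 8.32 CPM. The median of the list was 0.455 CPM per kilobase, against 44.6 for the 6 DUSP members.

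**Figure D3:**
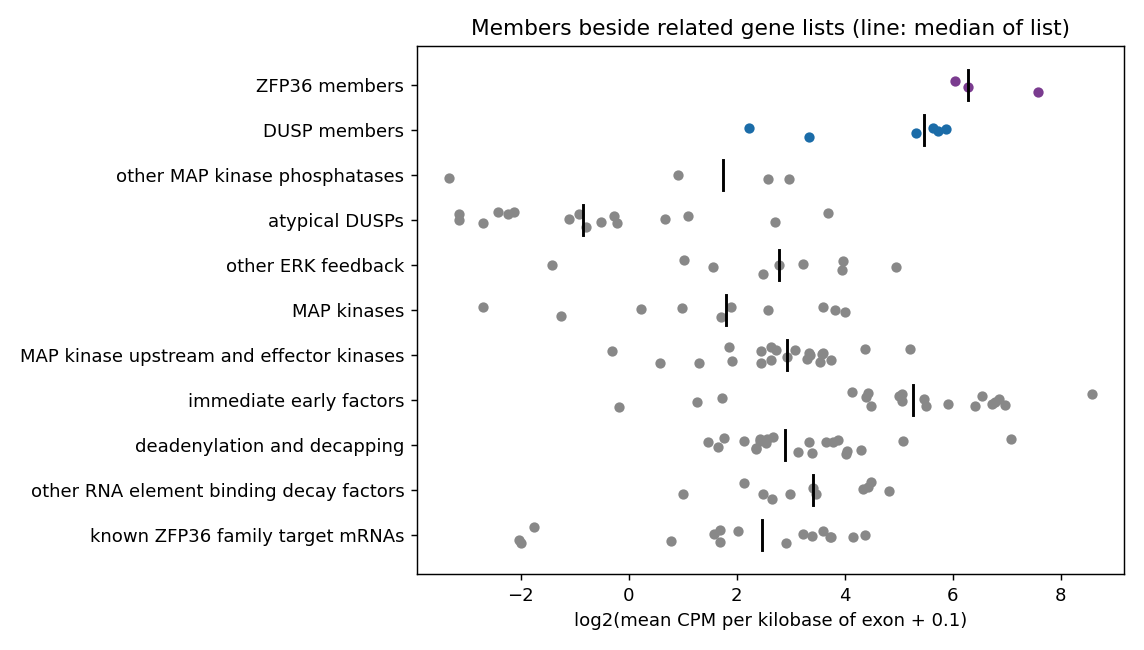
Mean level of each gene as log2(CPM per kilobase of exon + 0.1), 1 point per gene, for the members (coloured) and 9 related gene lists (grey), with a line at the median of each list. The ZFP36 and DUSP members lie in the range of the immediate early factors, and most genes of the other lists lie lower.

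The substrates of the phosphatases were present at moderate levels. Of 10 MAP kinases, 7 had a mean of at least 10 CPM and 0 of at least 100, and their median was 3.39 CPM per kilobase. Mapk3, which encodes ERK1, had 15.9 ± 2.75 CPM per kilobase, and Mapk14, the main p38 kinase, had 14.1 ± 1.13. The JNK genes Mapk9 and Mapk8 had 3.60 ± 0.635 and 1.89 ± 0.442 CPM per kilobase, and the neuronal form Mapk10 had 4, 18 and 11 counts.

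Kinases above and below them had a median of 7.55 CPM per kilobase over 21 genes, of which 19 had a mean of at least 10 CPM. Map3k1, which activates the JNK branch, led at 37.0 ± 5.28 CPM per kilobase. Mapkapk2, the kinase below p38 that phosphorylates ZFP36, had 20.6 ± 4.69, and was highest in library 1 at 78.9 CPM, against 52.7 and 56.1 in libraries 2 and 3. Among other feedback inhibitors and related genes, 9 of 10 symbols were found with a median of 6.80 CPM per kilobase, led by Sh3bp5, whose protein binds JNK, at 30.7 ± 3.39, and the Sprouty genes Spry2 and Spry1 had 9.32 ± 3.03 and 6.80 ± 0.866 CPM per kilobase. Dusp6, at 10.1 ± 1.18, lay in the range of this list.

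Genes of the decay machinery that ZFP36 proteins use were at moderate levels. All 22 genes of deadenylation and decapping had a mean of at least 10 CPM, with a median of 7.48 CPM per kilobase. Cnot1, the scaffold of the CCR4-NOT deadenylase that ZFP36 proteins recruit, had 14.6 ± 1.42 CPM per kilobase, and its nuclease subunits Cnot8, Cnot6l, Cnot6 and Cnot7 had 16.4 ± 0.265, 13.6 ± 1.69, 10.4 ± 1.17 and 6.27 ± 0.973. Btg1, an antiproliferative protein that binds the deadenylase, was the highest of the list at 134 ± 6.63 CPM per kilobase.

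Other proteins that bind regulatory elements of mRNAs lay below the ZFP36 genes. Of 11 such genes, all had a mean of at least 10 CPM, and the highest per kilobase were Pum2 at 28.2 ± 1.14, the endonuclease Zc3h12a at 22.4 ± 4.99 and Khsrp at 21.5 ± 2.86. Elavl1, which encodes HuR, a stabilising protein of AU-rich mRNAs, had 5.48 ± 0.309 CPM per kilobase. Each of the 3 ZFP36 genes had a higher mean CPM per kilobase than the highest of these 11.

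Of 16 mRNAs known as targets of ZFP36 proteins, 13 had a mean of at least 1 CPM and 8 of at least 10. Cd69, an activation marker of lymphocytes, led at 20.5 ± 1.90 CPM per kilobase, followed by the chemokine Ccl3 at 17.6 ± 5.63 and the survival factor Bcl2 at 13.3 ± 0.665. Tnf, the classic target of Zfp36, had 11.6, 10.1 and 14.6 CPM. Csf2 had 1, 0 and 5 counts and Il10 had 0, 0 and 10, and both were close to the floor. Decay of these mRNAs was not measured.

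The members were then compared between libraries. The counts of all 9 members varied beyond counting error in a chi-square test with TMM-scaled library sizes (edgeR), after Benjamini-Hochberg adjustment over 23317 genes. Of all genes tested, 70% passed, so that passing is the common case. Among nuclear protein-coding genes with a mean of at least 10 CPM, a level that all members reached, 6227 of 7883 passed. With library totals 8 of 9 members and 72.1% of genes passed, with DESeq2 size factors 9 and 70.1%, and with no minimum count 9 and 53.3%. Adjusted p was 1.9e-89 for Zfp36l2, 5.89e-64 for Dusp10 and 6.1e-54 for Zfp36l1, and at the other end 5.77e-07 for Dusp1 and 5.21e-05 for Dusp2. The test asks only whether 3 libraries differ more than counting error allows, and its p depends on the number of counts as well as on spread. Zfp36l2 had a coefficient of variation of 12.4%, whereas Dusp4, at 44.5%, had an adjusted p of 2.0e-16 in this test. The median coefficient of variation was 19.1% for the members, with a range of 0.972% to 44.5%, and 13.7% for nuclear protein-coding genes with a mean of at least 10 CPM.

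The steadiness of Dusp1 depended on the scaling. By library totals its adjusted p in the same chi-square test was 0.736. Scaled by TMM factors of 0.951, 0.983 and 1.07, its levels were 207, 196 and 181 CPM, a range of 1.14-fold with library 3 as the low one. Without WT library 3, 8 of 9 members and 56.8% of genes passed, and Dusp1 did not. Dusp6 was highest in library 1 and lowest in library 3 on both scales, at 36.9, 32.5 and 25.8 CPM scaled by TMM.

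Of the 9 members, 6 were lowest in library 1, namely Zfp36, Zfp36l1, Dusp2, Dusp4, Dusp5 and Dusp10, both by library totals and by TMM. Among nuclear protein-coding genes with a mean of at least 10 CPM, 51.2% were lowest in library 1 by library totals and 38.2% by TMM. The log2 level in library 2 minus that in library 1, by library totals, was 0.45 for Zfp36, 0.55 for Zfp36l1, 0.48 for Dusp5 and 1.32 for Dusp4, and these 4 genes differed by 0.09 to 0.14 between libraries 2 and 3 (-0.03 to 0.01 by TMM). For Dusp10 the level in library 2 minus that in library 1 was 0.60, and that in library 3 minus that in library 2 was -0.40, by library totals. The same differences were 0.24 and 0.18 for Dusp2. By TMM the log2 level of Dusp10 in library 3 was only 0.02 above that in library 1. Without WT library 1, 4 of 9 members passed the test, Dusp1, Dusp6, Dusp10 and Zfp36l2, against 38.2% of the 21653 genes tested in that pair. The 5 members that did not pass in that pair were Dusp2, Dusp4, Dusp5, Zfp36 and Zfp36l1. Without WT library 2, 8 of 9 members and 53.4% of genes passed, and Dusp10 did not.

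Immediate early factors, which are transcribed in response to the same signals, had a median of 38.8 CPM per kilobase, and 18 of 20 were lowest in library 1 by library totals and 17 by TMM. Their summed level was 3098, 4721 and 4573 CPM, and Egr1, for example, had 337, 654 and 570 CPM. Dusp1, which is often counted among these genes, did not share that pattern.

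Markers of cell types moved between the same libraries. Fibroblast markers were lowest in library 1 for 8 of 8 genes, with sums of 845, 1807 and 1805 CPM. Library 1 was highest for 6 of 7 alveolar epithelial markers, with sums of 2192, 474 and 573 CPM, for 8 of 10 myeloid markers, with 931, 301 and 416 CPM, and for 7 of 8 endothelial markers, with 1392, 736 and 1042 CPM. In library 1 Sftpc alone gave 1352 CPM of the alveolar sum and Lyz2 alone 704 CPM of the myeloid sum. Airway epithelial markers summed to 13767, 2799 and 7911 CPM, of which Scgb1a1 alone gave 13192, 2632 and 7641 CPM. Of these 6 airway markers 5 were highest in library 1, and the basal cell keratin Krt5 had 0, 1 and 1 counts. Red cell markers summed to 729, 3336 and 1107 CPM. Smooth muscle markers summed to 87.2, 113 and 85.9 CPM, and 6 of 8 were lowest in library 1 by library totals and 4 by TMM. Lymphocyte markers, at 1418, 1568 and 1548 CPM, moved less as a sum, and 6 of 12 were lowest in library 1. The part of these cell mixtures in the pattern of the 6 members was not tested.

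**Figure D4:**
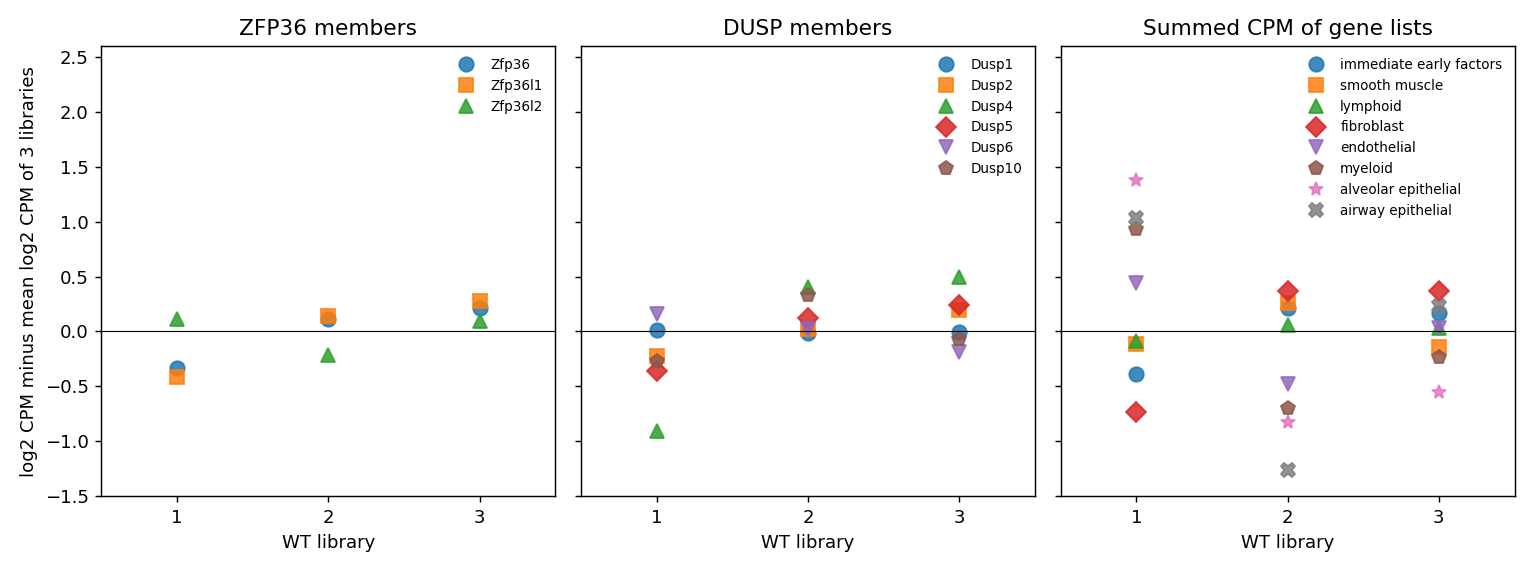
log2 CPM in each library minus the mean log2 CPM of the 3 libraries, for ZFP36 members (left), DUSP members (middle) and summed CPM of gene lists (right); each marker is 1 gene or 1 list. Zfp36, Zfp36l1, Dusp2, Dusp4, Dusp5 and Dusp10 lie below 0 in library 1, as do the immediate early factors and fibroblast markers. Smooth muscle markers at -0.12 and lymphocyte markers at -0.09 also lie below 0 there. The alveolar, airway, myeloid and endothelial markers lie above 0 in library 1.

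Promoters of the members were searched for motifs, and any relation of a motif to the levels was not tested. RefSeq sequences (GRCm38.p6) of 300 bases, from 250 before to 50 after the start, matched 7 of 9 members, and Dusp4 and Zfp36l2 had no entry. Positions are counted from the RefSeq start as 0, and motifs were searched on both strands. The cAMP response element TGACGTCA, which CREB and ATF factors bind, was found in Dusp1 at -143 to -136, and in 1.79% of 32851 promoters. The CArG box, which serum response factor binds, was found in Dusp5 at -82 to -73 and again at -72 to -63, and in Zfp36 at -58 to -49, and in 1.63% of promoters. The EGR element GCGNGGGCG was found in Dusp2 and Zfp36, and in 5.55% of promoters, and the TATA element TATAAA in Zfp36l1, and in 13.6%. The AP-1 element TGACTCA (5.20% of promoters) and the NF-kappaB consensus (8.46%) were found in none of the 7, which says only that these letters are not in this window.

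The stretches of Dusp1 and Dusp5 are shown from -250 to -51, and that of Zfp36 as 30 bases around its match. They are written 5′ to 3′ on the strand of the gene, and capitals mark the cAMP response element in Dusp1 and the CArG boxes in Dusp5 and Zfp36.
Dusp1 chr17:26508523-26508722 (minus): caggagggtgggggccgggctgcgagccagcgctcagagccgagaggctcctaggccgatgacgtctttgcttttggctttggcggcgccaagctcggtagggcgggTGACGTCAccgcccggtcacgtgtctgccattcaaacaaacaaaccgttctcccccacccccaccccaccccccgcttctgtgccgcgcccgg
Dusp5 chr19:53528895-53529094 (plus): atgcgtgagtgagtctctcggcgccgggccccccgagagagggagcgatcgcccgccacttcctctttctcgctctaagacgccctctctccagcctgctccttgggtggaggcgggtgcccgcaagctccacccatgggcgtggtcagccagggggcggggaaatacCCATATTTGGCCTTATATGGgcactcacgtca
Zfp36 chr7:28379267-28379296 (minus): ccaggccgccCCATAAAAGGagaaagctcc

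The shorter element TGACG, contained in the full one, occurs in Dusp1, Dusp2 and Dusp5 and in 20.8% of promoters. In Zfp36 and Dusp10 the annotated gene extends upstream of the RefSeq start, so that both windows lie inside the annotated gene. The window of Dusp10 is chr1:184034131-184034430, and its annotated gene starts at 184013302. The sequence around that start was not searched. A match is a description of sequence, and occupancy was not measured.

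**Figure D5:**
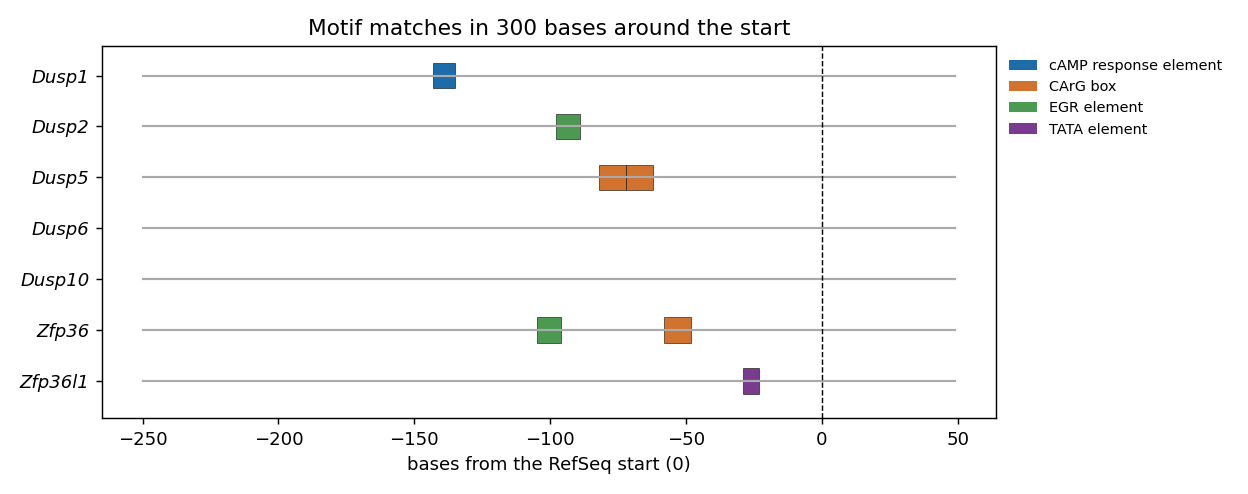
Motif matches in 300 bases around the RefSeq start (0, dashed line) of the 7 members with an entry, drawn to scale as distance in bases. Dusp5 has adjacent CArG boxes, Zfp36 a CArG box and an EGR element, and Dusp6 and Dusp10 have no match in these windows to the motifs drawn.

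Genes with the most similar pattern over the 3 libraries were found by the Euclidean distance of log2(CPM + 1) deviations, among 7882 nuclear protein-coding genes with a mean of at least 10 CPM. For Zfp36l2, the ZFP36 member with the highest mean CPM per kilobase, they were Dhrs3, Hras and Bri3bp, with distances of 0.0022, 0.0068 and 0.0072. For Dusp1, the DUSP member with the highest mean CPM per kilobase, they were Fbxo42, Actr3 and Exosc10, with distances of 0.0021, 0.0036 and 0.0054. With 3 libraries such likeness is common: 325 genes lay within 0.1 of Zfp36l2 and 780 within 0.1 of Dusp1.

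Sequence and overlap limit some values. Of the 50-base words of Dusp5, 20.5% also occur in an antisense gene at the same place, and 4.21% of those of Zfp36 and 1.61% of those of Zfp36l2 occur in other genes. For Dusp1, Dusp2, Dusp4, Dusp6 and Dusp10 the share was 0%. Annotated genes on the opposite strand overlap Dusp1, Dusp5, Dusp10 and the 3 ZFP36 genes. Those with a count in the table were far lower than the member, with 14 to 24 counts for Gm44710 at Zfp36, 21 to 65 for Gm26669 at Zfp36l1 and 324 to 352 for Ergic1 at Dusp1. No source used here gives the strand setting of the counting, so reads of such pairs may be mixed.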

How the data were processed

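RNA of 3 libraries of sorted lung cells was sequenced as stranded total RNA, per the labels' protocols. The table that the authors deposited holds raw counts of reads per gene, as whole numbers. Per the submitters' processing notes, Trimmomatic 0.38, STAR 2.6.1d, featureCounts 1.6.3 and DESeq2 1.18.1 were used, with no settings given. These notes name the human builds hg38 and GRCh38, whereas the genes are mouse; of 48349 gene IDs shared with GENCODE M21 (GRCm38), 42754 had identical coordinates. Of the 9 members, 6 had identical coordinates. Coordinates of genes are those of the table. Columns named as controls 1 to 3 were matched to WT 1 to 3 by number, as WT is the only group.

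CPM used library totals, with a pseudocount of 1 on the log2 scale and of 0.1 for ratios per kilobase. Kilobases are the union of exons in GENCODE M21. Variation between libraries was tested with a chi-square test for genes with at least 10 counts, given TMM sizes from edgeR 4.0.16 (R 4.3.3), at an adjusted p of 0.05. The test was run on simulated counts with counting error only, apart from genes with a planted change. Most genes of the real libraries varied beyond counting error, so that run checks the calculation and not how the test suits these libraries. DESeq2 1.42.0 gave alternative size factors. Sequences are from GENCODE M21 transcripts and RefSeq. The members and lists were chosen with earlier results of these data known. Genes named outside the members include the highest or lowest of some lists, but not of each list. They also include the 3 nearest in pattern to the member of each family with the highest mean CPM per kilobase. Others were chosen after their values were seen. Genes of the lists that are not named enter only the summary of their list.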

Additional observations from a re-analysis of the deposited data

How the results depend on the processing

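The count of 9 members that varied between libraries, against 70% of all genes tested, was 8 by library totals, against 72.1%. It was 9 with DESeq2 size factors, against 70.1% of genes, and 9 with no minimum count, against 53.3%. Without WT library 1 it was 4, against 38.2% of genes. Without WT library 2 it was 8, against 53.4%, and without WT library 3 it was 8, against 56.8%. The median level of the members, 7.30 log2(CPM + 1), was 8.04 relative to counts of nuclear protein-coding genes only, a smaller total that also raised the level of each of the 9 members by more than its SD, and between 7.15 and 7.42 with 1 library left out. The other alternatives moved it by less than its SD. The log2 ratio per kilobase of Zfp36l1 to Dusp1 changed sign, to -0.39 with the longest transcript and -0.018 with no length, and lay between -0.011 (without WT library 3) and 0.34 (without WT library 1) with 1 library left out. That of Dusp10 to Dusp5 lay between -0.017 (without WT library 2) and 0.24 (without WT library 3), and neither ratio was beyond its spread in the 3 libraries. Of the other alternatives for the ratios between neighbours, 45 moved a ratio by less than its SD and 7 by more, with no change of sign. No paired analysis was possible because the labels give only 1 group. At a depth of 16877297 to 18896263 counts, 8 of 9 members varied beyond counting error by library totals. The spread of Dusp1 was not beyond it (adjusted p 0.736, chi-square test), so its small SD may understate its uncertainty. The 3 libraries limit precision.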
